A study of Mus musculus with 2 samples.

Results

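The natural killer (NK) cells in mouse intrahepatic cholangiocarcinoma, which arises from bile duct cells of the liver, were 253 of the 21211 cell barcodes kept from the leukocytes of these tumours, 176 of 10441 in the NAV library and 77 of 10770 in the MOCK library. A barcode was taken as an NK barcode when the unique molecular identifiers (UMIs, each the count of 1 captured RNA molecule) of Ncr1, Klrb1c, Klre1, Klra8, Klra4 and Eomes summed to at least 2. The 4 T cell genes Cd3d, Cd3e, Cd3g and Trac also had to sum to 0, and Csf1r, C1qa, Csf3r, Cd79a and Siglech, which mark myeloid, B and plasmacytoid dendritic cells, to at most 1. The members were thus chosen by the UMIs of those genes, so their values below are a description and no result rests on them. All tumours came from C57BL/6 mice given transposon vectors for Myr-AKT and YAPS127A, activated forms of a growth kinase and a growth coactivator, by hydrodynamic injection into the liver. NAV mice received NAV2729, known as an inhibitor of the small GTPase ARF6, at 30 mg/kg every other day for 7 days, starting 7 days after the injection. MOCK mice carried the same AKT and YAP vectors and were followed over the same time without NAV2729. CD45+ cells were sorted from digested livers of each group, pooled, and made into 1 BD Rhapsody library per group, with the pool given as 6 tumours in the design text and as 3 in the protocol.

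NK cells are innate lymphocytes that kill infected or transformed cells with perforin and granzymes and release interferon-gamma and chemokines. Activating receptors of the NKG2D, NCR and Ly49 families signal through adaptors such as DAP12, and inhibitory receptors that read MHC class I hold them back. In mice, NK cells first carry CD27 and later CD11b (Itgam), the liver also holds related tissue-resident cells called ILC1, which carry Ncr1 and Klrb1c as well but lack Eomes, and the T-box factors Eomes and T-bet direct NK development.

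Promoter sequences are shown for Gzma and Gzmb, the granzyme genes whose NAV over MOCK ratios had opposite signs in NK barcodes, and for Ncr1, the gene of the NK receptor NKp46. They are the 250 bases before the RefSeq start of each gene on GRCm38.p6, with capitals marking the RUNX motif TGTGGTT or its reverse complement AACCACA. The Gzma window lies on the minus strand at chr13:113100982-113101231, the Gzmb window on the minus strand at chr14:56262335-56262584, and the Ncr1 window, before the first of 2 listed starts, on the plus strand at chr7:4337465-4337714.
Gzma: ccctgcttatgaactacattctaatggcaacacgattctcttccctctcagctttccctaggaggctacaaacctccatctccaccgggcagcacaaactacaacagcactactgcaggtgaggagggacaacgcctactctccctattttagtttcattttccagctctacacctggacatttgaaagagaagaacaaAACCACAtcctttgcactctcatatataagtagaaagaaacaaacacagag
Gzmb: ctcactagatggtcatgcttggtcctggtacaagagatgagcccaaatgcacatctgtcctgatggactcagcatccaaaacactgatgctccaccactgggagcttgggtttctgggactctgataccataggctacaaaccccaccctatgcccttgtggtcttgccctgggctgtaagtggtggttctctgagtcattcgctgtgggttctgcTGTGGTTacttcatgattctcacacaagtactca
Ncr1: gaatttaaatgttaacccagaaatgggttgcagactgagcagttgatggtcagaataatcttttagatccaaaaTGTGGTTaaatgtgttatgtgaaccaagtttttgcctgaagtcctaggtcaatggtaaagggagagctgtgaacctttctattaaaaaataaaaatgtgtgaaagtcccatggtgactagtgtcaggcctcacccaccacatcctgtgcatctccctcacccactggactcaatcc
The match began 51 bases before the start in Gzma, 34 bases before it in Gzmb and 176 bases before it in Ncr1. Among 14 promoters read for genes described here, these 3 held the RUNX letters on either strand, and 0 held the T-box letters GGTGTGA or their reverse complement TCACACC. Over all 27025 promoters of that length, 4.46% held the RUNX letters and 3.31% the T-box letters. The 14 genes were picked from those described here, and the sequences shown are the ones with a match. Whether the RUNX letters were more common among the 14 than among all promoters was not tested. The letters describe the windows and were not tested as binding sites.

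The NAV library held 31454031 UMIs and the MOCK library 45976676, and median depth per kept barcode was 2178 UMIs in NAV and 3882 in MOCK. NK barcodes were closer in depth, with a median of 2399.5 UMIs and 1270 genes in NAV and 2881 UMIs and 1475 genes in MOCK, over 454228 and 243218 UMIs in all. The 2 tables shared 5 barcode sequences, 0 of them among NK barcodes. With 1 library per group, no difference between treatments could be tested, the animal-to-animal spread is unknown, and every interval below is a 95% interval that covers counting error only. Intervals of gene ratios treat the summed UMIs as independent counts and leave out the spread between barcodes. Comparison barcodes were 788 T barcodes, with a T gene sum of at least 2 and an NK gene sum of 0, and 1808 B barcodes, with at least 2 UMIs of Cd79a, Cd79b and Ms4a1. Their median depths were 2344.5 UMIs in NAV and 2267.5 in MOCK for T, and 1438 in NAV and 1304 in MOCK for B barcodes.

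The label was checked against markers that the rule did not use. After each barcode was thinned to 1000 UMIs, which left 166 NAV and 74 MOCK members and dropped 10 NAV and 3 MOCK members that were shallower, Gzma had a UMI in 73.5% of NAV and 59.5% of MOCK NK barcodes, against 10.2% of NAV and 4.76% of MOCK T barcodes and 0.244% of NAV and 0.270% of MOCK B barcodes. Prf1, the gene of perforin, had one in 38.6% of NAV and 37.8% of MOCK NK barcodes. T barcodes had by definition no UMI of the NK genes of the rule, so barcodes with both NK and T genes were absent from this comparison. Of barcodes with an NK gene sum of at least 2 and a T gene sum of 1 or more, 37.9% in NAV and 39.1% in MOCK had a Gzma UMI without thinning. Counted the same way, members had one in 77.3% in NAV and 68.8% in MOCK. Markers of other lymphocytes were at 0 in part only. Of 13 T cell list genes outside the rule, 7 had UMIs in NK barcodes and 6 had none in either library, among them the coreceptor genes Cd4, Cd8a and Cd8b1. The summed level of the T cell list was 826 CPM (UMIs scaled to a fixed total per library) in NAV and 905 CPM in MOCK. Trbc1, a T cell receptor constant gene, was seen after thinning in 29.5% of NAV and 29.7% of MOCK NK barcodes, against 25.4% of NAV and 17.8% of MOCK T barcodes. Trbc2, the second such gene, was seen in 11.4% of NAV and 6.76% of MOCK NK barcodes, against 59.0% of NAV and 46.7% of MOCK T barcodes. Trdc, the delta chain gene, was seen in 12 of 166 NAV and 2 of 74 MOCK NK barcodes, and Cd28, a costimulatory receptor, in 13.3% of NAV and 10.8% of MOCK NK barcodes.

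Icos, an inducible costimulatory receptor, was seen after thinning in 6.02% of NAV and 18.9% of MOCK NK barcodes, against 49.9% of NAV and 59.4% of MOCK T barcodes and 0.731% of NAV and 0.405% of MOCK B barcodes. Of the B cell list 3 of 6 genes had UMIs, and Ighm, the IgM heavy chain gene, was seen after thinning in 10.8% of NAV and 6.76% of MOCK NK barcodes, against 90.3% of NAV and 89.2% of MOCK B barcodes. Of the ILC2 list 1 of 5 genes had UMIs, the transcription factor gene Gata3, which NK cells also express, in 16.3% of NAV and 12.2% of MOCK NK barcodes after thinning. Of the ILC3 list 2 of 5 genes had UMIs, with 1 UMI each in NAV and 0 in MOCK, and all 4 basophil and mast cell markers were at 0. The part of T, B or other cells in the results below was not tested.

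The NK gene sum that chose the members had a median of 6 in both libraries and was 4 or more in 131 NAV and 63 MOCK members, which describes the selection. Just inside it, with a sum of 2, were 24 NAV and 5 MOCK members, of which 75% in NAV and 100% in MOCK had a UMI of the granule gene Nkg7. Just outside it, with a sum of 1, were 51 NAV and 23 MOCK barcodes, with an Nkg7 UMI in 25.5% in NAV and 17.4% in MOCK.

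NK barcodes made up a larger share of the NAV library than of the MOCK library. They were 1.69% of kept barcodes in NAV (interval 1.45 to 1.95%) and 0.715% in MOCK (0.565 to 0.893%), 2.36-fold higher in NAV, or 1.24 on the log2 scale (0.84 to 1.64). Among NK and T barcodes together the NK share was 27.8% in NAV (24.3 to 31.4%) and 18.9% in MOCK (15.2 to 23.1%), a log2 ratio of 0.55 (0.16 to 0.96). T barcodes were 4.39% of kept barcodes in NAV and 3.06% in MOCK, a log2 ratio of 0.52 (0.31 to 0.73), and B barcodes were 8.86% in NAV and 8.20% in MOCK, a log2 ratio of 0.11 (-0.02 to 0.25). The NK ratio thus stood above both the T and the B ratio. Barcodes with NK genes and also T genes, which the rule left out, were 0.833% of NAV and 0.427% of MOCK barcodes, a log2 ratio of 0.96 (0.43 to 1.51). Barcodes with NK genes and at least 2 UMIs of the myeloid, B and plasmacytoid genes were 0.268% in NAV and 0.279% in MOCK. The CD45 sort sets the denominator, and thinning every barcode to 1000 UMIs before the rule gave a log2 ratio of 1.58 (1.10 to 2.08) for the share of kept barcodes.

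**Figure D1:**
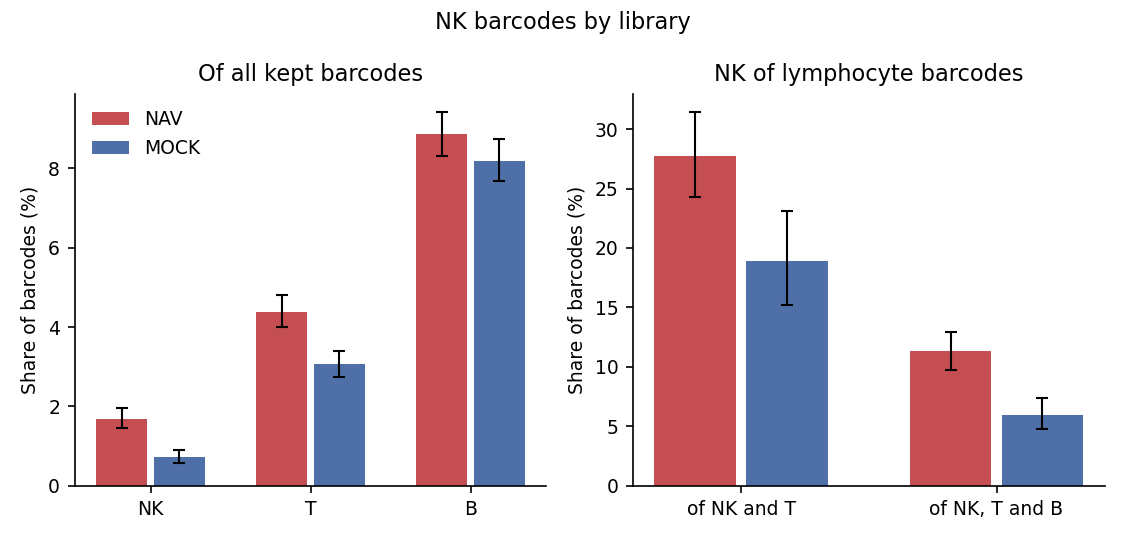
Shares of barcodes in percent, with NAV bars left of MOCK bars and lines for exact 95% intervals of counting error. Left, NK, T and B barcodes of all kept barcodes, where NK is 1.69% in NAV and 0.715% in MOCK. Right, NK barcodes of lymphocyte barcodes, 27.8% in NAV and 18.9% in MOCK of NK and T barcodes.

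The 6 NK genes of the rule varied among themselves. Klrb1c, the NK1.1 antigen gene, had 286 UMIs in NAV and 170 in MOCK, a log2 ratio of CPM of -0.15. Ncr1 had 92 UMIs in NAV and 46 in MOCK, a log2 ratio of 0.10. Klre1, a lectin-like receptor, had 264 UMIs in NAV and 96 in MOCK (0.56), and Eomes had 225 in NAV and 82 in MOCK (0.56). Klra8, the activating Ly49H receptor, had 189 in NAV and 73 in MOCK (0.47), and Klra4, the activating Ly49D receptor, 167 in NAV and 55 in MOCK (0.70). Klra4 and Klra8 UMIs met in 33 of 176 NAV and 10 of 77 MOCK members, and 88 NAV and 44 MOCK members had neither. Outside the rule, the 15 genes highest in NK over T barcodes were Klrb1b, Klri2, Serpinb9b, Irf8, Car2, Pdgfa, Spry2, Vegfa, Gzmc, Klra9, Itgax, Hhex, Klrb1a, Arl4d and Tyrobp, by mean log2 differences of 5.91 for Klrb1b down to 3.91 for Tyrobp with 5 CPM added to each value. Klrb1b is an inhibitory receptor, Irf8 and Hhex are transcription factors, Pdgfa and Vegfa are growth factors, and Tyrobp is DAP12. Irf8 stood at 1565 CPM in NAV and 1275 CPM in MOCK NK barcodes, against 36.3 CPM in NAV and 47.9 CPM in MOCK T barcodes. Vegfa stood at 944 CPM in NAV and 1094 CPM in MOCK NK barcodes, and Car2, a carbonic anhydrase, at 782 CPM in NAV and 880 CPM in MOCK.

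For gene comparisons the UMIs of all NK barcodes were summed per library and divided by their total, and 4091 genes with at least 30 UMIs over both libraries were measured. A gene was called when its NAV over MOCK ratio was at least 1.5-fold and its interval left out 0. By that rule 179 genes were higher in NAV (4.38%) and 220 lower (5.38%), 9.75% in either direction, and the median log2 ratio over all measured genes was 0.03. Calls per list are read against these shares, and each list's median against that median. Among the 18 lists of NK function and cell state, the glycolysis list had the lowest median, -0.57, and the list of mature NK genes the highest, 0.49. The mature NK median was not stable, and ran from 0.14 to 0.58 over 11 alternative settings. The migration median, 0.31, ran from 0.27 to 0.39. Lists of other cell types were read apart from these 18 and included higher medians. The B cell list had 1.56, with 1 of 2 measured members higher in NAV. Dendritic and plasmacytoid genes had 1.44, with 3 of 4 measured members higher, and myeloid genes 0.60, with 1 of 4 higher. The T cell list had a median of 0.18 and 1 call among 5 measured genes. That call was Icos, with 34 UMIs in 21 of 176 NAV members and 48 UMIs in 22 of 77 MOCK members, a log2 ratio of -1.40 (-2.08 to -0.73), which was lower in NAV under all 9 alternatives run. ILC1 and residency genes had a median of -0.49, with 5 of 13 measured members lower in NAV and 1 higher. For the same genes the median was -0.35 in T barcodes, over 12 genes, and 0.11 in B barcodes, over 10, so T barcodes shared the direction.

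**Figure D2:**
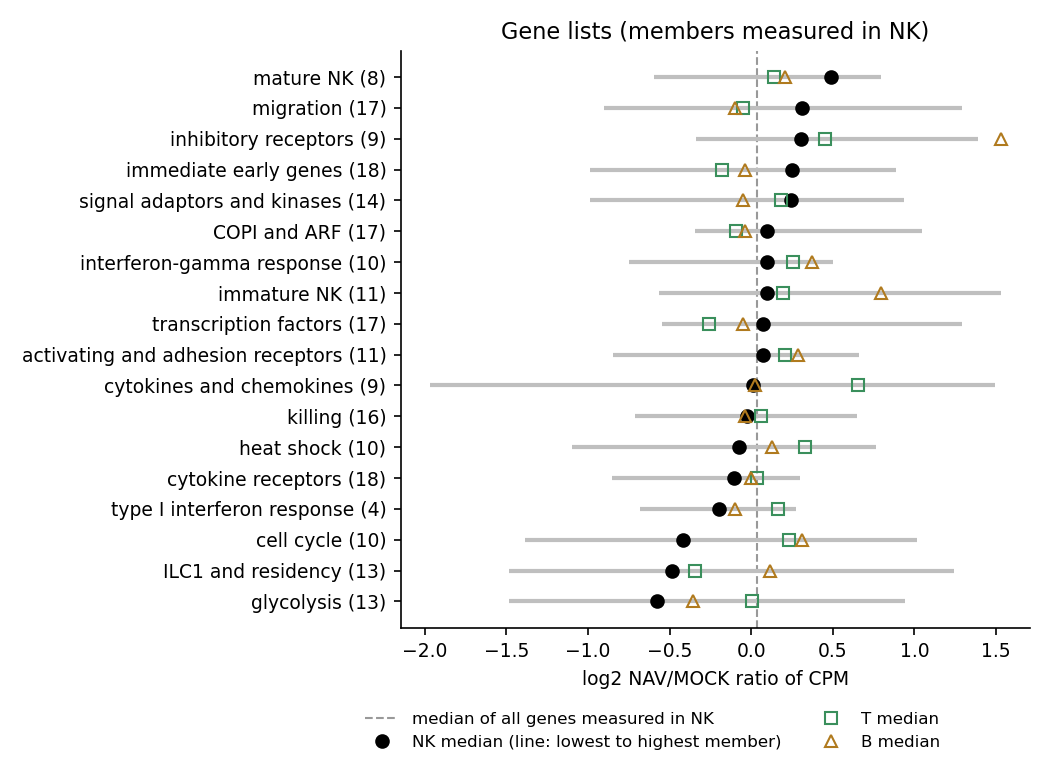
Median log2 NAV/MOCK ratio of each of the 18 lists of NK function and cell state in NK barcodes (filled points), with the lowest to highest member as a line, the number of measured members in brackets, and T and B medians of the same genes as open symbols. The dashed line is the median of all genes measured in NK, 0.03, and medians of these lists ran from -0.57 for glycolysis to 0.49 for mature NK genes.

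Activating and adhesion receptors gave 0 calls among 11 measured genes, with a median log2 ratio of 0.07. Klrk1, the NKG2D receptor that reads stress ligands on tumour cells, had 359 CPM in NAV and 341 CPM in MOCK, a log2 ratio of 0.07 (-0.32 to 0.47). Itgal and Itgb2, the chains of the integrin LFA-1 that binds target cells, stood at 632 and 881 CPM in NAV and at 572 and 670 CPM in MOCK. Cd226, the DNAM-1 receptor for nectin-like ligands, was lowest of the list, at 57.2 CPM in NAV and 103 CPM in MOCK, with a log2 ratio of -0.84 (-1.69 to 0.01).

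Inhibitory receptors held 1 call among 9 measured genes, Klra9, and a median of 0.31. Klra9, the Ly49I receptor for MHC class I, had 127 UMIs in 60 of 176 NAV members and 26 UMIs in 14 of 77 MOCK members, a log2 ratio of 1.39 (0.77 to 2.06). After thinning it was found in 23.5% of NAV and 10.8% of MOCK members, against 0.680% of NAV and 0.317% of MOCK T barcodes and 0% of B barcodes in both. Klra7, the Ly49G receptor, had 130 UMIs in NAV and 48 in MOCK (log2 ratio 0.54, 0.05 to 1.05), and Klra1, Ly49A, had 29 in NAV and 8 in MOCK (0.96, -0.21 to 2.30). All 4 measured Ly49 genes of the list, with Klra3 at 0.31, had ratios above 0. Klra9 counts are uncertain, because 69.8% of the 31-base words in the last 500 bases of its transcript also occur in another Ly49 gene, against 5.32% for Klra7. Klra3 alone holds 52.8% of these Klra9 words. Of the words of Klra8, a gene of the rule, 33.8% occur in Klra9, so the Ly49 ratios are not independent of each other or of the rule. Klrd1 and Klrc1, the chains of the CD94-NKG2A receptor, had log2 ratios of 0.15 (-0.18 to 0.48) and -0.12 (-0.52 to 0.29). The checkpoint genes Pdcd1, Lag3, Tigit and Havcr2 had 7 UMIs or fewer in each library and were not measured.

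Of 14 signal adaptors and kinases measured, 1 was called higher and 1 lower, with a median of 0.25. Syk, a kinase that binds phosphorylated DAP12, had 50 UMIs in NAV and 14 in MOCK, a log2 ratio of 0.94 (0.06 to 1.91), and missed the call in 4 of 10 alternative settings. Cish, an inhibitor of IL-15 signalling, had 48 UMIs in NAV and 44 in MOCK, -0.78 (-1.40 to -0.15), and in T barcodes its log2 ratio was -1.14. The adaptor genes Tyrobp and Fcer1g stood at 1317 and 1728 CPM in NAV and at 900.4 and 1394 CPM in MOCK, log2 ratios of 0.55 and 0.31, and T barcodes had 0.59 and -0.06 for the same genes.

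The granzymes differed in direction. Gzma had 1973 UMIs, or 4344 CPM, in NAV and 673 UMIs, or 2767 CPM, in MOCK, a log2 ratio of 0.65 (0.52 to 0.78). Gzmb had 622 UMIs, or 1369 CPM, in NAV and 504 UMIs, or 2072 CPM, in MOCK, a log2 ratio of -0.60 (-0.77 to -0.43). Gzmc was also lower in NAV, with 49 UMIs against 43 in MOCK from a smaller total (-0.71, -1.33 to -0.09), but 31 of the 49 NAV UMIs came from 1 barcode. Granzyme A and granzyme B are serine proteases that enter target cells through perforin pores. In T barcodes the log2 ratio was 0.77 for Gzma and 0.06 for Gzmb.

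Over the whole killing list 1 of 16 measured genes was called higher and 2 lower, with a median of -0.03. Prf1 had 223 UMIs in NAV and 89 in MOCK, a log2 ratio of 0.42 (0.06 to 0.80), and Nkg7, a granule membrane protein needed for degranulation, had 674 in NAV and 254 in MOCK, 0.51 (0.30 to 0.72). Neither reached 1.5-fold. Serglycin (Srgn), the proteoglycan that packs granzymes, was close to even at -0.06 (-0.24 to 0.12). Serpinb9, which protects killer cells from their own granzyme B, was at 1986 CPM in NAV and 2356 CPM in MOCK, -0.25 (-0.40 to -0.09). Fasl, the death ligand, was at 198 CPM in NAV and 271 CPM in MOCK, -0.45 (-0.93 to 0.03).

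**Figure D3:**
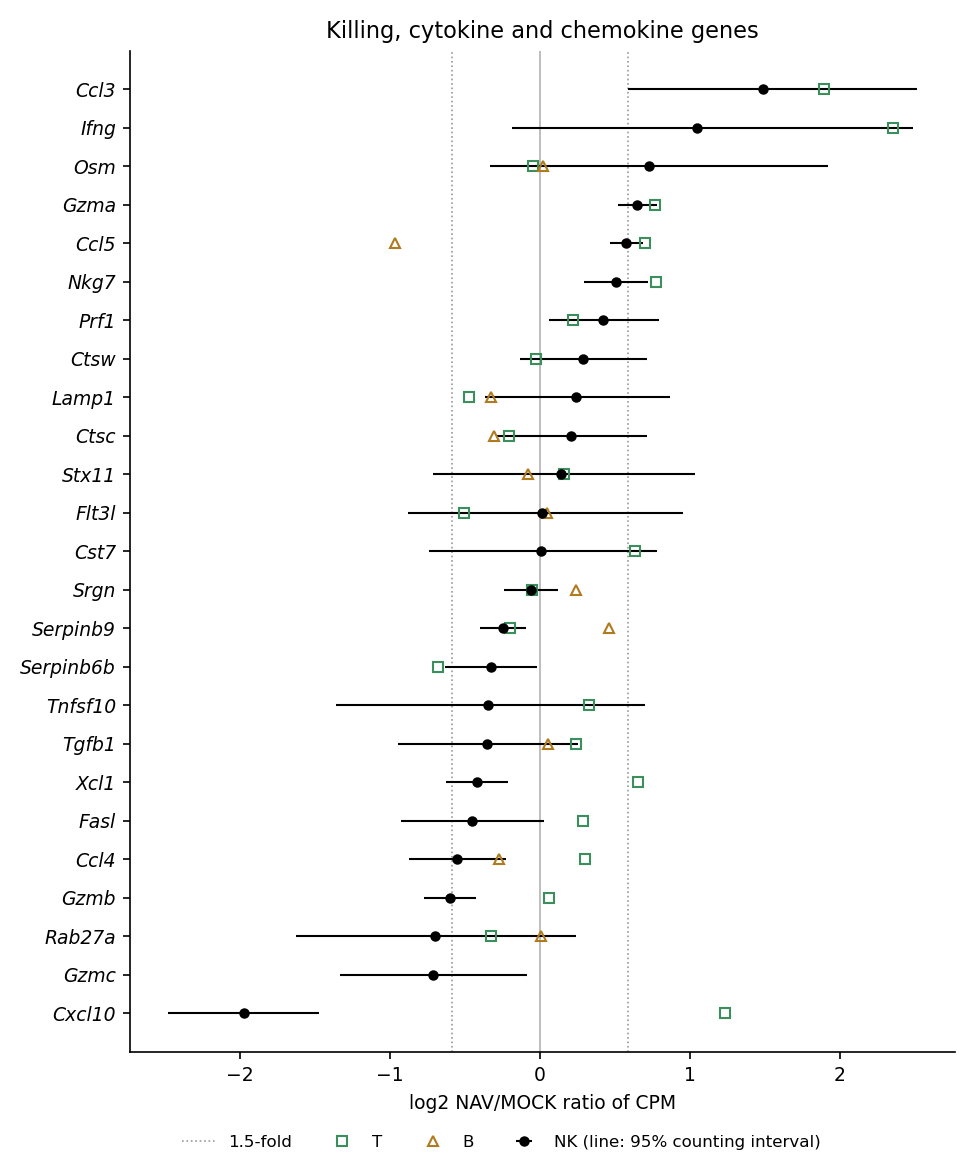
Log2 NAV/MOCK ratio of CPM in NK barcodes for killing, cytokine and chemokine genes (filled points with 95% counting intervals), with T and B ratios as open symbols where measured and dotted lines at 1.5-fold. Gzma lies at 0.65 and Gzmb at -0.60, with T ratios of 0.77 and 0.06.

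Barcodes rich in Gzmb were a smaller share in NAV. The cut was 10 UMIs without thinning, for Gzma below as well. It depends on depth, and MOCK members were deeper, with a median of 2881 UMIs against 2399.5 in NAV. At least 10 Gzmb UMIs were found in 16 of 176 NAV members (9.09%, 5.29 to 14.3%) and 19 of 77 MOCK members (24.7%, 15.6 to 35.8%). The median member went the other way, with 7.91 Gzmb UMIs per 10000 in NAV and 4.71 in MOCK, and after thinning 51.2% of NAV and 44.6% of MOCK members had a Gzmb UMI. Gzma was higher in NAV at the median as well, 41.2 per 10000 in NAV and 22.1 in MOCK, and 87 NAV (49.4%) and 27 MOCK members (35.1%) had at least 10 UMIs. Both granzymes were seen together in 100 of 176 NAV and 38 of 77 MOCK members, and neither in 27 NAV and 16 MOCK members. The Gzma call was lost with a myeloid, B and plasmacytoid sum of 0 (0.51) and with equal weight for each barcode (0.31). The Gzmb call was lost under the stricter barcode filter (-0.56), with an NK gene sum of at least 3 (-0.51) and without the top barcode of each library (-0.50).

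**Figure D4:**
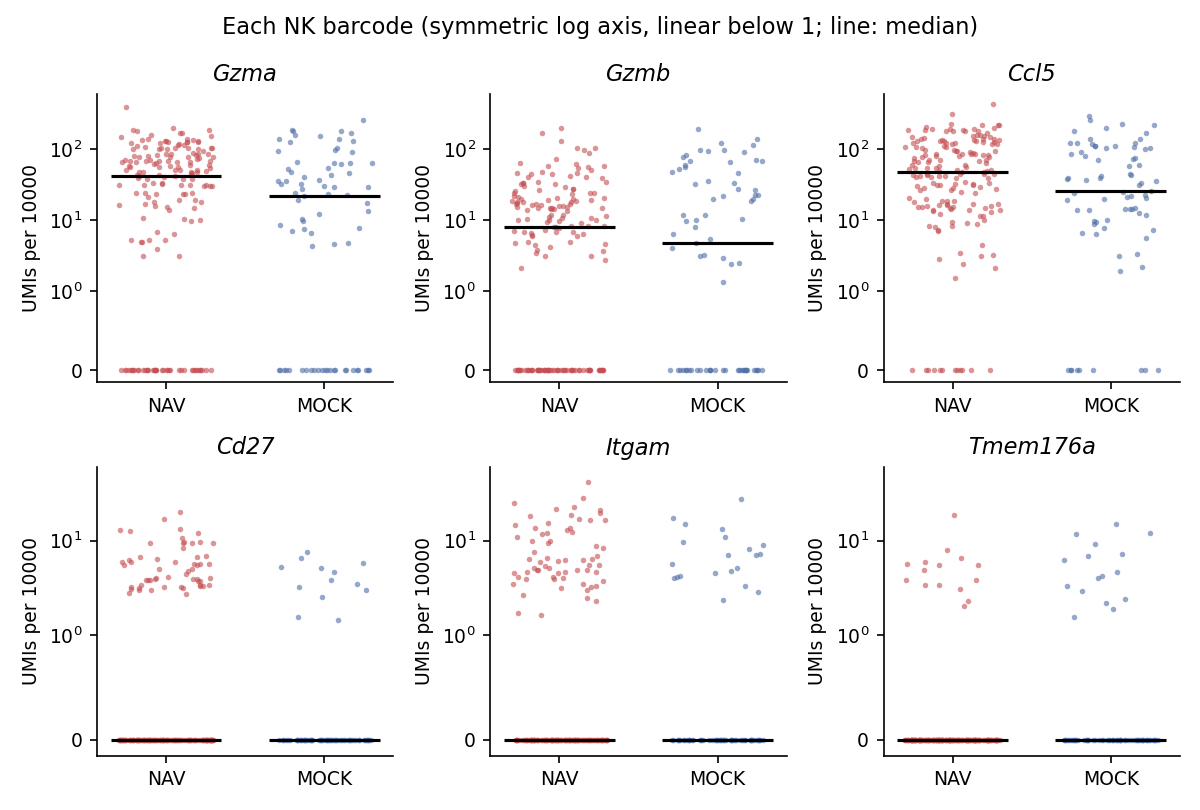
UMIs per 10000 UMIs in each NK barcode, 176 in NAV and 77 in MOCK, on a symmetric log axis that is linear below 1, with the median as a line. The Gzma median is 41.2 in NAV and 22.1 in MOCK and the Gzmb median 7.91 in NAV and 4.71 in MOCK, while for Cd27, Itgam and Tmem176a the median is 0 in both libraries.

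Cytokine and chemokine genes gave 1 higher and 1 lower call among 9 measured genes, with a median of 0.01, where T barcodes had a median of 0.65 for the same genes. Ccl5, a chemokine that draws T cells and monocytes, was the most abundant, with 2558 UMIs, or 5632 CPM, in NAV and 919 UMIs, or 3778 CPM, in MOCK, a log2 ratio of 0.58 (0.47 to 0.69), just under 1.5-fold. Ccl5 passed the call in 6 of 11 alternative settings, and its ratio ran from 0.30 to 0.71 over them all. It was seen after thinning in 86.7% of NAV and 73.0% of MOCK members. Xcl1, which attracts cross-presenting dendritic cells, had 460 UMIs in NAV and 330 in MOCK, a log2 ratio of -0.42 (-0.63 to -0.21), and 0.65 in T barcodes. Ifng, the gene of interferon-gamma, had 27 UMIs in 20 NAV members and 7 UMIs in 6 MOCK members, a log2 ratio of 1.05 (-0.19 to 2.49) that did not pass, and its T ratio was 2.35.

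Cxcl10, an interferon-induced chemokine that binds CXCR3, was lower in NAV, with 51 UMIs in 15 members against 107 UMIs in 11 MOCK members, a log2 ratio of -1.97 (-2.48 to -1.48). A single NAV member held 16 of those UMIs, and a single MOCK member 39. T barcodes had a Cxcl10 ratio of 1.24, on the other side of 0. Ccl3, a chemokine for monocytes and neutrophils, was called higher, with 63 UMIs in 16 NAV members and 12 in 5 MOCK members (1.49, 0.59 to 2.52), but 30 NAV UMIs were in 1 barcode, and the ratio was 0.55 without barcodes of high doublet score. Ccl4 had 181 UMIs in NAV and 142 in MOCK (-0.55, -0.88 to -0.22), with 62 MOCK UMIs in 1 barcode a ratio of -0.03 without the top barcode of each library and 0.04 with equal weight for each barcode.

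Cytokine receptors and their signalling genes were nearly even, with 0 higher and 1 lower among 18 measured and a median of -0.11. Il2rb, the shared receptor chain for IL-2 and IL-15 on which NK cells depend, was found in 175 of 176 NAV and 77 of 77 MOCK members, at 4883 CPM in NAV and 4662 CPM in MOCK, a log2 ratio of 0.07 (-0.04 to 0.17). The lower gene was Stat5a, a transducer of IL-15 signals, at 66.0 CPM in NAV and 119 CPM in MOCK (-0.85, -1.64 to -0.06), while its partner Stat5b was at 125 CPM in NAV and 107 CPM in MOCK (0.23, -0.46 to 0.96). The IL-18 receptor chains Il18r1 and Il18rap had ratios of -0.25 and -0.09, and -0.74 and -1.04 in T barcodes.

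Transcription factors held 1 call among 17 measured genes, Klf2, with a list median of 0.07. Klf2, a factor that sustains lymphocyte quiescence and recirculation, had 137 UMIs in 63 NAV members and 30 UMIs in 17 MOCK members, a log2 ratio of 1.29 (0.71 to 1.91), against 0.25 in T and -0.07 in B barcodes. After thinning it was seen in 25.3% of NAV and 14.9% of MOCK NK barcodes. Tbx21, the T-bet gene, was at 183 CPM in NAV and 251 CPM in MOCK, -0.46 (-0.95 to 0.04). Runx3, which programs cytotoxic lymphocytes, was at 641 CPM in NAV and 440 CPM in MOCK, 0.54 (0.22 to 0.88), without reaching 1.5-fold.

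Cd27 and Itgam, which mark successive stages of NK maturation, were both called higher in NAV. Cd27 had 97 UMIs in 57 of 176 NAV members and 18 UMIs in 13 of 77 MOCK members, a log2 ratio of 1.53 (0.79 to 2.34), and 0.79 in T barcodes. Itgam had 120 UMIs in 66 NAV members and 37 in 21 MOCK members, 0.80 (0.25 to 1.37), and -0.61 in T barcodes. After thinning, Cd27 was seen in 18.1% of NAV (12.5 to 24.8%) and 6.76% of MOCK members (2.23 to 15.1%), and Itgam in 24.1% of NAV (17.8 to 31.3%) and 17.6% of MOCK members (9.70 to 28.2%), with intervals that overlap for both genes. T barcodes had a Cd27 UMI in 14.5% in NAV and 8.25% in MOCK after thinning, and an Itgam UMI in 2.04% in NAV and 0.952% in MOCK. Without thinning, Cd27 alone was seen in 41 NAV and 11 MOCK members, Itgam alone in 50 NAV and 19 MOCK members, both in 16 NAV and 2 MOCK members, and neither in 69 NAV and 45 MOCK members.

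Of 8 measured mature NK genes 3 were higher (Itgam, Itgax and Spn) and 1 lower (Gzmb), with a median of 0.49, where T barcodes had 0.14. The summed level of the list was 3544 CPM in NAV and 3643 CPM in MOCK, slightly lower in NAV. Itgax, the integrin CD11c, had a log2 ratio of 0.66 (0.25 to 1.09) and Spn, the sialophorin CD43, 0.67 (0.13 to 1.24), but both were also high in other lymphocytes, Itgax at 1.86 in T barcodes and Spn at 1.07 in B barcodes. Klrg1, a receptor of late maturation, had 16 UMIs in NAV and 3 in MOCK, too few to be measured, and Cma1, a chymase listed with mature NK cells, 27 in NAV and 2 in MOCK, 1 short of the minimum. Of 11 measured immature NK genes only Cd27 was called, and the median was 0.10. Cd7, an early lymphoid antigen, was at 473 CPM in NAV and 699 CPM in MOCK, -0.56 (-0.86 to -0.26), and Tcf7, a factor of early stages, at 211 CPM in NAV and 165 CPM in MOCK, 0.36 (-0.18 to 0.93).

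Among genes that mark ILC1 or tissue residency, the 5 called lower were Tmem176a, Tmem176b, Inpp4b, Itgav and Cxcr6, and the 1 called higher was Cd69. Tmem176a had 27 UMIs in 15 NAV members and 37 UMIs in 16 MOCK members, a log2 ratio of -1.36 (-2.13 to -0.60), and its neighbour Tmem176b 14 UMIs in NAV and 21 in MOCK, -1.49 (-2.57 to -0.44). Both encode membrane proteins of innate lymphoid and myeloid cells. After thinning Tmem176a was seen in 4.22% of NAV (1.71 to 8.50%) and 16.2% of MOCK members (8.67 to 26.6%). T barcodes carried it more often, in 16.6% in NAV and 28.9% in MOCK, and B barcodes in 1.34% in NAV and 0.945% in MOCK. The T ratios were -0.75 for Tmem176a and -0.98 for Tmem176b, so the direction was shared with T barcodes.

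Inpp4b, a lipid phosphatase gene, was at 152 CPM in NAV and 271 CPM in MOCK, -0.84 (-1.35 to -0.33), and Itgav, an integrin chain, at 74.9 CPM in NAV and 136 CPM in MOCK, -0.86 (-1.59 to -0.12). Itgav missed the call in 3 of 10 alternative settings. Cxcr6, a chemokine receptor that holds lymphocytes in the liver, had 28 UMIs in each library, in 11 of 176 NAV and 12 of 77 MOCK members, -0.90 (-1.71 to -0.09). A single NAV member held 14 of the NAV UMIs, and the ratio was -1.62 without the top barcode of each library. The call was lost with a myeloid, B and plasmacytoid sum of 0 (-0.66) and with equal weight for each barcode (-0.53). Its unthinned share was 6.25% in NAV and 15.6% in MOCK, but after thinning 4.22% in NAV and 4.05% in MOCK, so the direction of the share differed between both ways of counting. Itga1, the integrin CD49a and a defining ILC1 marker, stood apart with 45 UMIs in NAV and 13 in MOCK, 0.89 (-0.03 to 1.91). Cd69 was called higher, with 31 UMIs in NAV and 7 in MOCK (1.25, 0.03 to 2.67), and missed the call in 5 of 10 alternative settings.

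Co-detection with Eomes differed between ILC1 genes. Eomes without Tmem176a or Tmem176b was found in 102 of 176 NAV (58.0%, 50.3 to 65.3%) and 32 of 77 MOCK members (41.6%, 30.4 to 53.4%), and a Tmem176 gene without Eomes in 13 NAV (7.39%, 3.99 to 12.3%) and 18 MOCK members (23.4%, 14.5 to 34.4%). Only 4 NAV and 4 MOCK members had both. Eomes and Cxcr6 met in 1 NAV member and in 0 MOCK members, while Cxcr6 without Eomes was found in 10 NAV and 12 MOCK members. With Itga1 added to Cxcr6, Eomes was seen beside either gene in 17 NAV and 4 MOCK members and was missing beside them in 19 NAV and 18 MOCK members. Members with a Tmem176 gene and no Eomes had a median of 3187 UMIs in NAV and 4215.5 in MOCK, above the medians of those with Eomes alone, 2384.5 in NAV and 2299 in MOCK. Eomes is one of the genes of the rule, so these counts describe the members.

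Migration genes had 4 higher and 1 lower among 17 measured, with a median of 0.31, against -0.05 in T and -0.10 in B barcodes for the same genes. Klf2, Cd69 and Itga2 were among the higher ones, and the lower one was Cxcr6. Itga2, the integrin CD49b that marks circulating mouse NK cells, had 67 UMIs in 49 NAV members and 15 UMIs in 12 MOCK members, a log2 ratio of 1.26 (0.44 to 2.17). After thinning it was seen in 15.7% of NAV (10.5 to 22.1%) and 5.41% of MOCK members (1.49 to 13.3%), against 1.13% of NAV and 1.27% of MOCK T barcodes. S1pr1, the receptor for exit from tissues, had 30 UMIs in NAV and 11 in MOCK, 0.55 (-0.49 to 1.69).

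**Figure D5:**
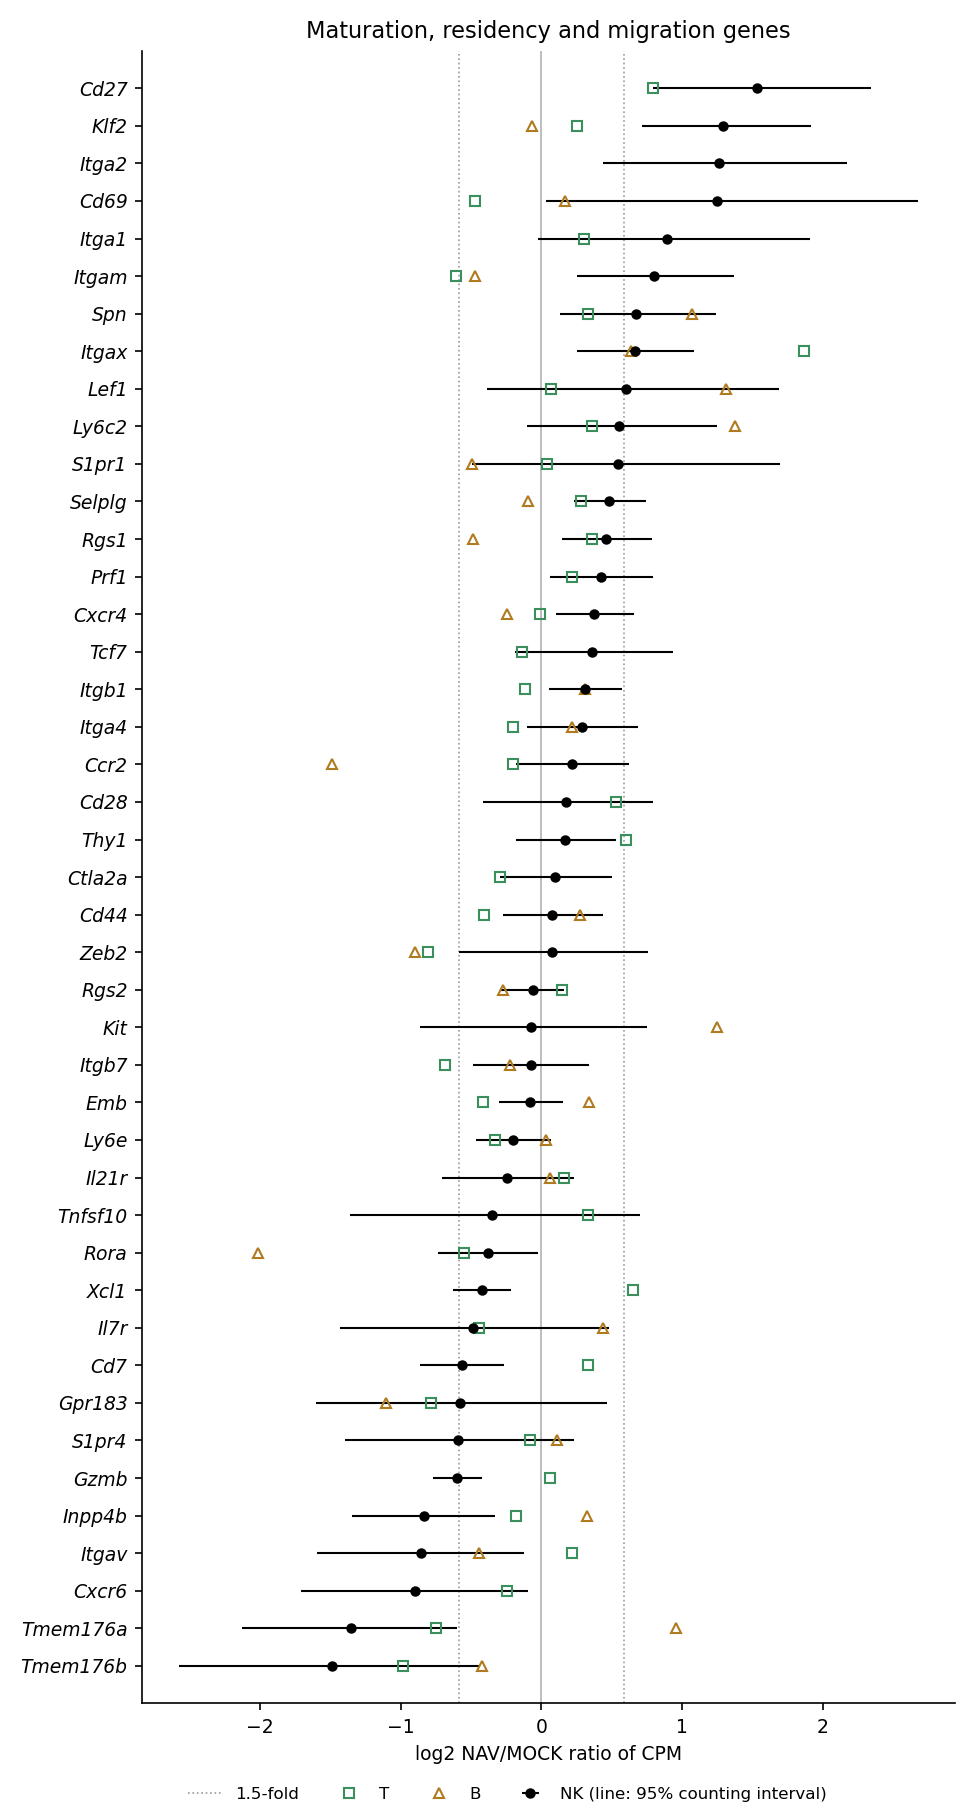
Log2 NAV/MOCK ratio of CPM in NK barcodes for genes of maturation, residency and migration shown here (filled points with 95% counting intervals), with T and B ratios as open symbols where measured and dotted lines at 1.5-fold. Cd27 (1.53), Klf2 (1.29) and Itga2 (1.26) lie at the top, and Tmem176a (-1.36) and Tmem176b (-1.49) at the bottom.

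Of 13 measured glycolysis genes 4 were lower in NAV and 0 higher, with a median of -0.57, against 0.00 in T and -0.36 in B barcodes. Over 11 alternative settings that NK median ran from -0.61 to -0.33. Gapdh was at 491 CPM in NAV and 1106 CPM in MOCK, a log2 ratio of -1.17 (-1.43 to -0.91), with -0.45 in T and -0.69 in B barcodes. Tpi1, the triose isomerase, was at 167 CPM in NAV and 259 CPM in MOCK, -0.63 (-1.13 to -0.13), with 0.40 in T barcodes, and Gpi1, which acts on glucose-6-phosphate, at 96.9 CPM in NAV and 185 CPM in MOCK, -0.93 (-1.57 to -0.30). Tpi1 missed the call in 4 of 11 alternative settings, and Gpi1 in 1 of 10, where its weakest ratio was -0.33. The fourth, Eno1, was equally low in all lymphocytes, at -1.49 in NK, -1.49 in T and -1.52 in B barcodes. Hk2, the inducible hexokinase, lay on the other side, at 94.7 CPM in NAV and 49.3 CPM in MOCK, a log2 ratio of 0.94 whose interval held 0.

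Cell cycle genes had 3 lower and 0 higher calls among 10 measured, with a median of -0.42, against 0.23 in T and 0.31 in B barcodes. Mki67, a marker of dividing cells, had 20 UMIs in 4 of 176 NAV members and 28 UMIs in 6 of 77 MOCK members, -1.39 (-2.29 to -0.51). A single NAV member held 9 of these UMIs and a single MOCK member 11. After thinning, 2 of 166 NAV and 2 of 74 MOCK members had an Mki67 UMI. Stmn1, a microtubule regulator, was at 143 CPM in NAV and 267 CPM in MOCK, -0.90 (-1.42 to -0.38), and Mcm3, a helicase subunit, at 48.4 CPM in NAV and 103 CPM in MOCK, -1.09 (-1.98 to -0.20). Top2a, found in 11 NAV and 11 MOCK members, had a ratio of -0.41 (-1.10 to 0.29), and Pcna, at 396 CPM in NAV and 362 CPM in MOCK, 0.13 (-0.24 to 0.52).

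Interferon-gamma response genes had 0 higher and 1 lower call among 10 measured, with a median of 0.10. The lower one was the immunoproteasome gene Psmb8, at 174 CPM in NAV and 292 CPM in MOCK (-0.75, -1.23 to -0.26), and T and B barcodes had -0.56 and -0.42. Irf1 and Tap1, induced by interferon-gamma, had ratios of 0.41 (-0.25 to 1.11) and 0.50 (-0.14 to 1.18). Of 19 type I interferon response genes in the tables only 4 were measured, with 0 calls and a median of -0.20. Among those under the minimum, Isg15 had 2 UMIs in NAV and 18 in MOCK, Ifit1 6 in NAV and 15 in MOCK, Ifi44 0 in NAV and 13 in MOCK, and Oasl2 10 in NAV and 1 in MOCK. These genes were picked after their values were seen, and few members held them. Isg15 was in 2 NAV and 11 MOCK members, Ifit1 in 4 NAV and 5 MOCK members. Ifi44 was in 0 NAV and 5 MOCK members, Oasl2 in 9 NAV members and 1 MOCK member.

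Immediate early genes, which answer receptor signals and tissue digestion, had 1 higher and 1 lower call among 18 measured, with a median of 0.25. Klf6 was at 579 CPM in NAV and 358 CPM in MOCK, 0.69 (0.34 to 1.06), against -0.10 in T barcodes. Fosb, a subunit of AP-1, was at 207 CPM in NAV and 411 CPM in MOCK, -0.99 (-1.41 to -0.57), and at -1.59 in T barcodes. Heat shock genes had 0 higher and 3 lower calls among 10 measured, with a median of -0.08. Hspa8, the constitutive chaperone HSC70, was at 922 CPM in NAV and 1974 CPM in MOCK, -1.10 (-1.29 to -0.91), with -0.67 in T and -0.72 in B barcodes. Dnajb1, its cochaperone, was at 161 CPM in NAV and 255 CPM in MOCK (-0.67, -1.17 to -0.15), and Hspa1b, inducible HSP70, had 53 UMIs in only 10 NAV members and 47 in only 4 MOCK members (-0.73, -1.32 to -0.13). Of 11 alternative settings, Dnajb1 missed the call in 3, and Hspa1b missed it in 3 and changed direction in 1 more.

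The COPI coat, which carries cargo back from the Golgi and is recruited by ARF GTPases, was read because the series addresses it. Of 17 measured COPI and ARF genes 1 was higher and 0 lower, with a median of 0.10, against -0.09 in T and -0.04 in B barcodes. Copb1, the beta-COP subunit, had 63 UMIs in NAV and 17 in MOCK, 0.99 (0.20 to 1.85), against 0.18 in T barcodes. Arf6, the GTPase at which NAV2729 is aimed, was at 420 CPM in NAV and 473 CPM in MOCK, -0.17 (-0.51 to 0.18), and Arf1, which recruits the coat, at 484 CPM in NAV and 391 CPM in MOCK, 0.31 (-0.04 to 0.67).

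Ranked by the interval bound nearest to 0, and leaving out antigen receptor genes and some gene classes, the 12 highest called genes were Cxcl2, H2-Eb1, H2-Ab1, Ptgs2, H2-Aa, Cst3, Cd74, Plbd1, Cd27, Il1b, Klra9 and Klf2. The first 8 and Il1b are genes of antigen-presenting or myeloid cells, and single NAV members held much of their UMIs, 55 of 80 for Cxcl2, 123 of 167 for H2-Ab1, 33 of 35 for Ptgs2 and 136 of 199 for Cst3. Cd27, Klra9 and Klf2 were not of this kind, with at most 5, 7 and 11 UMIs in any NAV member. Over 23 marker genes of myeloid, dendritic and B cells, members held 529 UMIs in NAV and 128 in MOCK, with 0 in 88 of 176 NAV and 35 of 77 MOCK members, 10 or more in 6 NAV and 2 MOCK members, and at most 222 in NAV and 31 in MOCK. Igkc, the kappa light chain gene, had 47 UMIs in 7 NAV members, 41 of them in 1, and 0 in MOCK. Without members holding 10 or more such UMIs, the H2-Aa ratio was -0.0049, while Cd27, Klra9, Klf2 and Itga2 kept their calls.

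The 12 genes called lower by the same ranking were Fn1, Fau, Ppp1ca, Serpina3g, Cxcl10, Ctsd, Crip1, Dgat1, Hvcn1, Eef2, Rcc2 and Sema6d. Several were as low in every lymphocyte class, Fau at -2.15 in NK, -2.31 in T and -2.27 in B barcodes, Ppp1ca at -2.20 in NK, -2.28 in T and -2.41 in B barcodes, and Ctsd at -2.19 in NK, -2.36 in T and -2.36 in B barcodes. Treatment and library cannot be told apart for these or any other genes, since each treatment has 1 library. Fn1, fibronectin, had 3 UMIs in NAV and 31 in MOCK, 23 of the MOCK UMIs in 1 barcode. Serpina3g, a serine protease inhibitor of activated lymphocytes, had 29 UMIs in 22 of 176 NAV members and 72 UMIs in 34 of 77 MOCK members, -2.21 (-2.89 to -1.57), against -1.56 in T and -0.59 in B barcodes. Sema6d, a semaphorin, had 13 UMIs in 8 NAV members and 28 in 15 MOCK members, -2.01 (-3.08 to -1.01), against -0.31 in T barcodes. Dgat1, which makes triglycerides, was at 174 CPM in NAV and 567 CPM in MOCK, -1.71 (-2.12 to -1.30), and at -1.67 in T and -1.09 in B barcodes.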

How the data were processed

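The deposited tables hold UMI counts per gene and cell barcode, 1 table per library, as the authors deposited them. The tools named, per the submitters' processing notes, are STARsolo 2.7.10a, fastp and Cell Ranger, with the build mm10, and the role of each is not given in the sources used here. Each table holds 31253 genes, and for 48 repeated symbols the identifier with most UMIs was used. The filter on barcodes asked for 500 UMIs and 200 genes or more and a mitochondrial share below 20%, and it removed 24 barcodes in NAV and 93 in MOCK. The members, the lists and the tests were chosen with earlier results of these data known.

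UMIs of all members were summed per library and scaled to CPM, and NAV over MOCK log2 ratios were given exact conditional binomial 95% intervals. Shares have Clopper-Pearson intervals. A gene at 0 UMIs was set at 3 counts per library for its ratio. Named genes were the markers and genes of the rule, list members with at least 30 UMIs, the 15 genes outside the rule highest over T barcodes (at least 100 CPM in NK barcodes of each library), and the 12 highest and 12 lowest called genes by the interval bound nearest to 0. That ranking left out mitochondrial, ribosomal, predicted, haemoglobin, antigen receptor and sex-linked genes. Genes under the minimum that the text names were chosen after their values were seen. Scrublet's automatic threshold marked 0 NAV and 1 MOCK barcodes and had not worked, so doublets were kept, and leaving out scores above 0.25 (1 NAV and 1 MOCK member) was an alternative. Other alternatives were stricter filters, other limits in the rule, other scalings and other count minimums. The ratio step was run on simulated counts, drawn independently for the summed UMIs of each gene. They held no clustering of UMIs in single barcodes, so that run does not cover such clustering. Python 3.11.15, numpy 2.4.6, scipy 1.17.1, pandas 2.3.3, scanpy 1.11.5 and matplotlib 3.10.9 were used. A few genes of the lists are counted in list totals and not reported here by name.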

Additional observations from a re-analysis of the deposited data

How the results depend on the processing

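With 1 library per group and few members, above all 77 in MOCK, intervals cover counting error only. The log2 ratio of the NK share of kept barcodes ran from 1.12 to 1.58 over 8 alternatives, and that of NK among NK and T barcodes from 0.48 to 0.61. With a minimum of 100 UMIs, which left 1300 genes, 59 genes were higher and 65 lower in NAV, and with a minimum of 10 UMIs, which left 7053 genes, 385 were lower. After subtracting the mean T and B ratio, 141 genes were lower, 70 of them among the 220, and the heat shock median was -0.33. The same subtraction turned the direction of Ctsd (0.17), Eno1 (0.022), Fau (0.14), Fosb (0.040), Itgax (-0.59), Ppp1ca (0.15) and Spn (-0.028). With an NK gene sum of at least 3, Cd74 was at -0.21 and H2-Ab1 at -0.059, and with equal weight per barcode Hspa1b was at 0.18. In alternatives chosen after seeing the data, H2-Aa was at -0.0049 without members rich in markers of other cells, and Ptgs2 at -1.49 without its top barcode. The Cxcr6 share differed between NAV and MOCK by -9.33 percentage points unthinned, against 0.163 thinned. Of 57 called genes followed, 21 kept call and direction under every alternative run. For these changes the cause was not tested. No paired analysis was possible because each group has 1 library.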
